A study of Homo sapiens with 3 samples.

Results

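The proteasome genes were taken as all protein-coding genes of GENCODE 44 whose symbols begin with PSMA, PSMB, PSMC, PSMD, PSME or PSMG followed by a digit. This rule found 49 of 19689 genes, of which 19 belong to the core, 24 to the caps (with the activators and the factors that assemble the cap base) and 4 are the PSMG chaperones of core assembly. The remaining 2 genes, PSMC3IP and PSME3IP1, only share the symbol: the first acts in meiotic recombination and the second is named as an interaction partner of PSME3, and neither is a proteasome subunit. The rule used no measured value.

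To study where both proteins sit at these genes, ChIP-seq peak lists of HuCCT1 cells, an established human cholangiocarcinoma line, were examined. There were 3 libraries, 1 each for Strawberry Notch 1 (SBNO1), for TAF4, which belongs to the TFIID complex that recruits RNA polymerase II to promoters, and for control IgG. The labels list the line and the antibody, with no genotype or treatment, so the antibody was the only labelled difference between the libraries. Without replicates no test between antibodies was possible, and intervals below are exact 95% Clopper-Pearson intervals that cover counting error only.

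The proteasome degrades proteins that carry ubiquitin. Its barrel-shaped core is built from stacked rings of alpha subunits, which form the gates, and of beta subunits, some of which cut the protein chain. The 19S cap recognises ubiquitin and unfolds substrates with a ring of ATPases, while the PSME activators open the gate without ubiquitin. Interferon replaces the catalytic beta subunits with those of the immunoproteasome. Most subunits are needed in every cell, and the transcription factor NFE2L1 raises their genes when proteasome activity falls.

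To show the DNA under the peaks, the 250 bases before the canonical transcription start site (TSS) are given for 5 genes. These are PSME3, whose protein the study followed as a partner of SBNO1, the members with the highest-ranked SBNO1 peak among core, cap and chaperone genes (PSMA2, PSMC3 and PSMG3), and PSMA4 as the first constitutive member without a peak. Sequences are of GRCh38, 5′ to 3′ on the strand of the gene. Capitals mark exact matches on either strand to 8 motifs. NFY is known to bind CCAAT. The KLF and SP factors, which favour GC-rich promoters, were represented by the letters GGGCGG. The large family of ETS activators was represented by CCGGAA. The TATA box was searched as TATAAA. The remaining motifs were TGACNNNGC, the core of the antioxidant response element (ARE) that NFE2L1 and NFE2L2 recognise, AAGATGGC for YY1, GCGCATGCG for NRF1 and TGACGTCA for the cyclic AMP response element (CRE). Neighbouring or overlapping matches run together in the capitals. The windows are PSME3 at chr17:42833147-42833396 on the plus strand, PSMA2 at chr7:42932175-42932424 on the minus strand, PSMC3 at chr11:47426440-47426689 on the minus strand, PSMG3 at chr7:1570033-1570282 on the minus strand and PSMA4 at chr15:78540194-78540443 on the plus strand.
PSME3: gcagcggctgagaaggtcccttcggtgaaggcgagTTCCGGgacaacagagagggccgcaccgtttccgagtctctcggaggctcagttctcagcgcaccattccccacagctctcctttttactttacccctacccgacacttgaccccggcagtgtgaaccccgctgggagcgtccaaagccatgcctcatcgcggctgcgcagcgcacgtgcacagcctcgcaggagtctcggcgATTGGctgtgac
PSMA2: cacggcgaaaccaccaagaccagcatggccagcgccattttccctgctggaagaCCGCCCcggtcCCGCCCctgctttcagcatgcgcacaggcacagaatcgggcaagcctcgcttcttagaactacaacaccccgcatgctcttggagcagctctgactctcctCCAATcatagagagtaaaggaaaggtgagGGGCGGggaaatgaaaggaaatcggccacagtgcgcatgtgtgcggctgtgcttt
PSMC3: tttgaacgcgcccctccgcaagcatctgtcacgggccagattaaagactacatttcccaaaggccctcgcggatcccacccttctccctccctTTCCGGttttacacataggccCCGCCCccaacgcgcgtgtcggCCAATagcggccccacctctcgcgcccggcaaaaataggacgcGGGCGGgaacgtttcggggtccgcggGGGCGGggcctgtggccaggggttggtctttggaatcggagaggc
PSMG3: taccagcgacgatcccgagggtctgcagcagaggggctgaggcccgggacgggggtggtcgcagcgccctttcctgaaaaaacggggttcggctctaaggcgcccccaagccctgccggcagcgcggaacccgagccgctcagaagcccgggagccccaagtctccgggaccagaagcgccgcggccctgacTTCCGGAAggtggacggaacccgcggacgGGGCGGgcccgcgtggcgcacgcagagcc
PSMA4: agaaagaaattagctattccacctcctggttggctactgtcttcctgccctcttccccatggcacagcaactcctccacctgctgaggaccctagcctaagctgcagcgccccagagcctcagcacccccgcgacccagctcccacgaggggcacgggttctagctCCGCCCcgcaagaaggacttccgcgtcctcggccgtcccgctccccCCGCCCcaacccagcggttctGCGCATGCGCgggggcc

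The printed bases of PSMA2 lay wholly within the SBNO1 peak (chr7:42931974-42932731) and those of PSMC3 wholly within its SBNO1 peak (chr11:47426059-47426953). PSMA2 had 3 KLF/SP matches and 1 NFY match, and PSMC3 had 3 KLF/SP matches, 1 NFY match and 1 ETS match in these bases. The stretch of PSMA4 had 2 KLF/SP matches and an NRF1 match that reads on both strands, but no ETS or NFY match. A match is a description of letters and not of a bound factor.

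SBNO1 and TAF4 peaks were found together at most proteasome promoters. A gene was counted when a peak lay within 1 kb of any TSS of its protein-coding transcripts, and a peak was counted for every gene in its reach. SBNO1 peaks marked 29 of the 49 genes (59.2%, interval 44.2% to 73.0%), whereas the share over the whole annotation was 25.7%. TAF4 peaks marked 34 genes (69.4%, interval 54.6% to 81.7%), against 31.9% over the annotation. Both proteins were found at 29 genes, the background being 22.6%. There was no gene with SBNO1 without TAF4, a class that held 3.08% of all genes. A count of 0 of 49 allows a share of up to 6.12% by the limit of 3 counts, and its interval reached 7.25%. TAF4 without SBNO1 was found at 5 genes (10.2%, interval 3.40% to 22.2%), close to the 9.29% of all genes. Neither peak was found at 15 genes (30.6%, interval 18.3% to 45.4%), compared with 65.0%. The IgG list, which gives the background of the immunoprecipitation, had no peak at any member (0 of 49, with the same limits), while 1.41% of all genes had one.

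Counted from the marked genes, TAF4 was present at 29 of 29 proteasome genes with SBNO1 (lower bound of the interval 88.1%), against 88.0% of all SBNO1-marked genes. SBNO1 was present at 29 of 34 proteasome genes with TAF4 (85.3%, interval 68.9% to 95%), against 70.9% of all TAF4-marked genes. Most of these peaks lay on a TSS rather than beside one. An SBNO1 peak covered a TSS of 28 members, compared with 21.7% of all genes, and a TAF4 peak covered a TSS of 32 members, compared with 28.8%. The canonical TSS itself was covered by SBNO1 at 27 members (55.1%) and by TAF4 at 30 members (61.2%), where the shares of all genes were 18.9% and 26.4%.

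**Figure D1:**
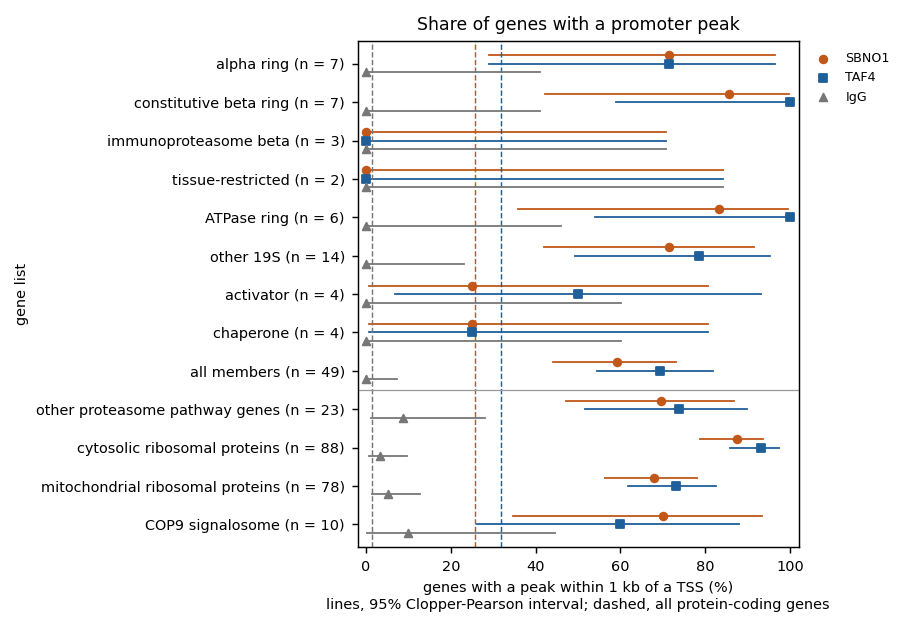
Share of genes (%) with a SBNO1 (circle), TAF4 (square) or IgG (triangle) peak within 1 kb of a TSS, by gene list, with 95% Clopper-Pearson intervals as lines and the share of all protein-coding genes as dashed lines. The SBNO1 and TAF4 points of the constitutive rings lie to the right of their dashed lines, with 100% TAF4 in the constitutive beta and ATPase rings. The immunoproteasome and tissue-restricted genes lie at 0, with wide intervals that cross the dashed lines.

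The members were then described by role, first the constitutive core and the 19S cap. Of these 34 genes, 26 had SBNO1 (76.5%, interval 58.8% to 89.3%) and 29 had TAF4 (85.3%, interval 68.9% to 95%). Only PSMA4, PSMA7, PSMD6, PSMD7 and PSMD13 had neither. The score of a peak is a whole number up to a cap of 1000 whose scaling was not stated, so it only ranks peaks within a list.

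In the alpha ring, which gates the core, 5 of 7 genes had both peaks. PSMA2 had an SBNO1 score of 1000 and a TAF4 score of 1000. PSMA6 had an SBNO1 score of 1000 and a TAF4 score of 946, in narrow peaks of 198 bp and 262 bp. PSMA5 and PSMA3 reached the cap with TAF4 but not with SBNO1, at 921 and 860. The lowest pair of the ring was that of PSMA1, with 716 for SBNO1 and 715 for TAF4. PSMA4 and PSMA7 had no peak of either protein, and the nearest TAF4 peaks lay 20651 bp and 16486 bp away, far beyond the 1 kb limit.

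PSMA2 had the widest SBNO1 peak at the cap among the core genes, with 758 bp. It covered both TSS of PSMA2 and also those of MRPL32, a mitochondrial ribosomal protein gene on the opposite strand, and of the overlapping gene model ENSG00000256646. The peak can therefore not be given to 1 of these genes. The TAF4 peak (chr7:42931957-42932639) covered the same genes.

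In the constitutive beta ring, TAF4 was found at 7 of 7 genes and SBNO1 at 6. PSMB3 (chr17:38752228-38752787 for SBNO1) and PSMB7 (chr9:124415381-124415636) were at the cap in both lists. PSMB7 carries the trypsin-like activity. PSMB6, which carries the caspase-like activity, had 935 for SBNO1 and 1000 for TAF4, and PSMB2, a structural subunit, had 955 and 1000. PSMB5, the chymotrypsin-like subunit and the target of bortezomib, had low scores in both lists, 664 for SBNO1 and 574 for TAF4. Its SBNO1 peak covered the canonical TSS and its TAF4 peak ended 8 bp upstream of it.

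PSMB4 and PSMB1 differed from the other beta genes. PSMB4 had a TAF4 peak (chr1:151399368-151399789, score 798) that covered its canonical TSS, and no SBNO1 peak closer than 51952 bp. PSMB1 was marked only because of the 1 kb limit. Its SBNO1 peak (chr6:170554039-170554417, score 564, the lowest SBNO1 score of all members) ended 732 bp from the TSS, and its TAF4 peak (score 1000) ended 845 bp from it. Both covered the canonical TSS of TBP, the gene of the TATA-box binding protein, which is transcribed in the opposite direction.

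None of the interferon-induced or tissue-restricted core genes had a peak. These were PSMB8, PSMB9 and PSMB10 of the immunoproteasome, PSMA8 of the testis and PSMB11 of the thymus. The count of 0 of 5 is a small one, and the upper bound of the interval was 52.2% for each antibody. It could therefore not be distinguished from the shares of all genes, 25.7% for SBNO1 and 31.9% for TAF4. For PSMB8 and PSMB9, which lie next to each other in the major histocompatibility region, the nearest SBNO1 peaks were 125142 bp and 115629 bp away, and for PSMB10 the distance was 77845 bp. For PSMA8 it was 2260522 bp. PSMB11 had the shortest distance with 6880 bp, and the peak there was that of PSMB5, its neighbour on chromosome 14. No interferon was listed among the treatments of the cells, and the activity of these genes was not measured here.

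In the ATPase ring of the 19S cap, TAF4 was found at 6 of 6 genes and SBNO1 at 5. PSMC3 had the highest-ranked SBNO1 peak of the cap genes, with a score of 1000 and a width of 895 bp, and the widest TAF4 peak of all members, with 1200 bp and a score of 913 (chr11:47425766-47426965). PSMC4 had 963 for SBNO1 and 1000 for TAF4, PSMC1 had 821 and 1000, and PSMC6 had 733 and 1000. PSMC6 also had the widest SBNO1 peak of all members, with 1018 bp. PSMC5 was the only member with more than 1 SBNO1 peak. A narrow one of 180 bp (score 1000) lay upstream of the canonical TSS and one of 306 bp (score 842) on it, and a single TAF4 peak of 708 bp (score 1000) overlapped both. These peaks also covered TSS of FTSJ3, a ribosomal RNA methyltransferase gene on the opposite strand.

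PSMC2 had TAF4 without SBNO1, with a score of 1000. The TAF4 peak (chr7:103344733-103344988) was centred at −2783 bp from the canonical TSS (negative is upstream), at an alternative TSS of PSMC2, and covered the canonical TSS of DNAJC2, a ribosome-associated chaperone gene on the opposite strand. With 1 TSS per gene PSMC2 lost its TAF4 peak.

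Among the 14 other 19S genes, PSMD1 to PSMD14, SBNO1 was found at 10 and TAF4 at 11. PSMD2, PSMD3, PSMD4, PSMD5, PSMD8 and PSMD11 were at the cap in both lists. PSMD2 is a scaffold of the cap base and PSMD4 is a ubiquitin receptor. The next in rank among cap genes after PSMC3 were PSMD8, with an SBNO1 peak of 514 bp (chr19:38374338-38374851), and PSMD3, with 493 bp (chr17:39980439-39980931), both encoding lid subunits. At PSMD11, which encodes a lid subunit, the peaks of both lists began at the same base and were 302 bp and 296 bp wide.

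The other pairs at 19S genes were below the cap in at least 1 list. PSMD14, the deubiquitinase of the lid, had 899 for SBNO1 and 814 for TAF4. PSMD12, a lid subunit, had 645 and 556, the lowest TAF4 score of all members. PSMD9 had 856 and 848 and PSMD10 had 980 and 619. PSMD5, PSMD9 and PSMD10 are chaperones that help to assemble the cap base rather than subunits of the finished cap, and all 3 had both peaks. The peaks of PSMD10, on the X chromosome, also covered the canonical TSS of ATG4A, an autophagy protease gene.

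PSMD1, a scaffold of the cap base, had TAF4 (chr2:231056521-231056910, score 796) without SBNO1, the nearest SBNO1 peak lying 82245 bp away. PSMD6, PSMD7 and PSMD13, all of the lid, had no peak. The nearest SBNO1 peaks were 165032 bp, 441343 bp and 29258 bp away, and the nearest TAF4 peak of PSMD6 was 3623451 bp away.

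**Figure D2:**
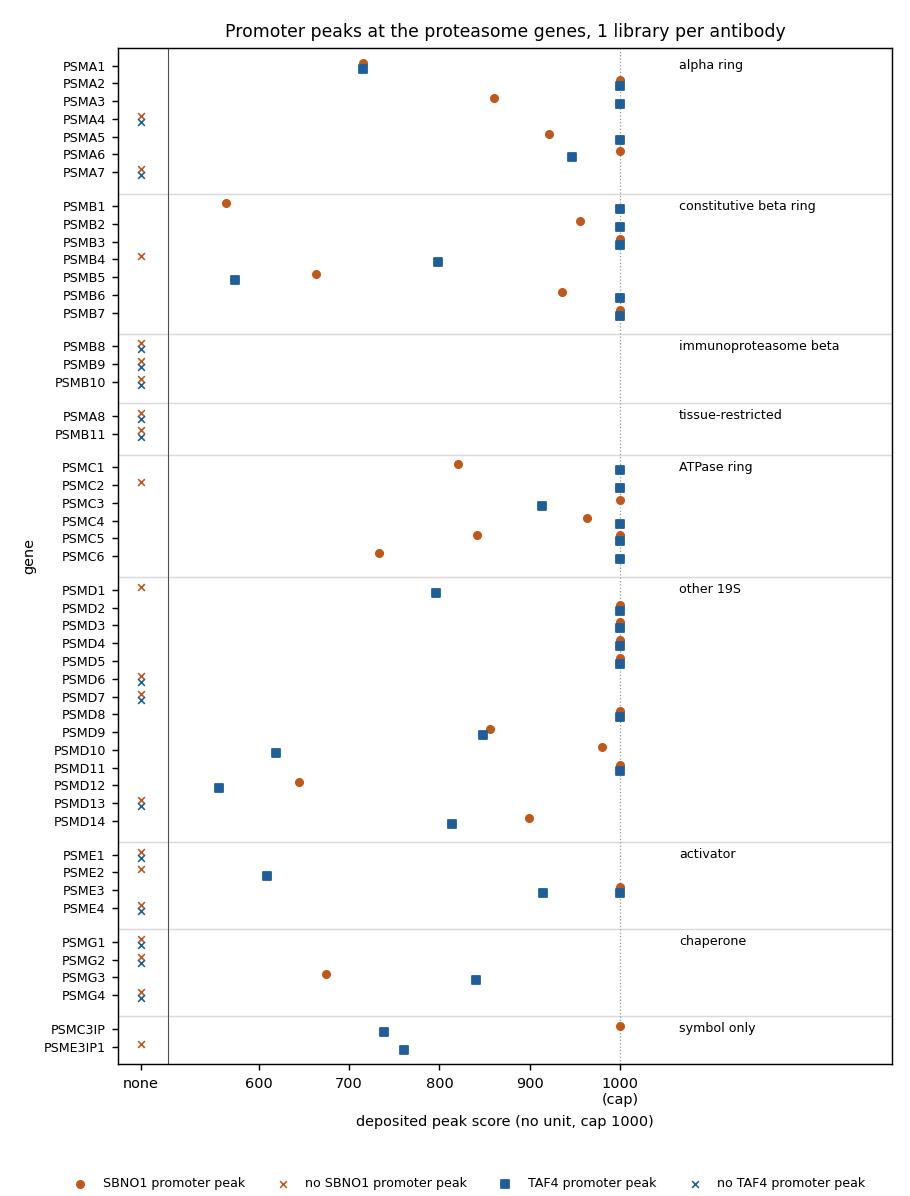
Deposited score of each SBNO1 (circle) and TAF4 (square) promoter peak, without unit and capped at 1000, for the 49 genes in rows ordered by role, with crosses at the left where a list had no peak. Crosses fill the immunoproteasome and tissue-restricted rows, and 14 SBNO1 and 20 TAF4 peaks stand at the cap; the IgG list had no peak at these genes.

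The 4 activator genes differed among each other. PSME1 and PSME2 encode the interferon-inducible activator, PSME3 the nuclear activator and PSME4 a large activator known from the testis and from DNA repair. PSME1 had no peak, and its nearest TAF4 peak lay 5247 bp away. PSME2 had a TAF4 peak (chr14:24147205-24147556, score 609) that ended 559 bp from its nearest TSS and covered the canonical TSS of RNF31, a ubiquitin ligase gene. The nearest SBNO1 peak of PSME2 was 1110982 bp away. PSME4 had neither, with the nearest SBNO1 peak 73047 bp and the nearest TAF4 peak 73054 bp away.

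PSME3 had both peaks by the rule, but SBNO1 was not found at its canonical TSS. A TAF4 peak (chr17:42833332-42833512, score 1000, 181 bp) covered the canonical TSS at position 42833397, and no SBNO1 peak lay there. This TAF4 peak also covered a TSS of BECN1, an autophagy gene. The SBNO1 peak (chr17:42824205-42824426, score 1000) was centred at −9082 bp. There it reached a single alternative TSS of PSME3 at its last base and covered the canonical TSS of BECN1. A further TAF4 peak (chr17:42824275-42824501, score 914) overlapped it. Most of the printed PSME3 bases, with their ETS match at −215, were outside any peak, since the TAF4 peak began at −65 bp. With 1 TSS per gene PSME3 lost its SBNO1 peak and kept TAF4.

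Of the 4 assembly chaperones of the core, only PSMG3 had peaks. Its SBNO1 peak (chr7:1569975-1570382) had a score of 675 and its TAF4 peak (chr7:1570011-1570419) a score of 840. PSMG1, PSMG2 and PSMG4 had no peak, the closest being a TAF4 peak 22266 bp from PSMG4. The share of 25.0% had an interval of 0.631% to 80.6%, so that it could not be distinguished from that of the other roles or from that of all genes. Of the genes that only share the symbol, PSMC3IP had both peaks, with 1000 for SBNO1 and 739 for TAF4. PSME3IP1 had TAF4 (score 761) without SBNO1, in a peak that also covered the canonical TSS of RSPRY1.

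Few members depended on the limit of 1 kb. Just inside it were PSMB1 with both proteins and PSME2 with TAF4. No member had a nearest SBNO1 or TAF4 peak between 1 kb and 3 kb, so that widening the limit to 3 kb added none, while the share of all genes rose to 28.4% for SBNO1 and 33.4% for TAF4.

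The peaks themselves were then compared with the other promoter peaks of the same list. The 30 SBNO1 peaks at members had a median score of 971.5 (range 564 to 1000). Of these, 14 (46.7%) were at the cap, compared with 32.2% of all SBNO1 promoter peaks. The 35 TAF4 peaks had a median score of 1000 (range 556 to 1000), and 20 (57.1%) were at the cap, compared with 50.1%. These counts are small, and neither difference was tested. Their median widths of 391 bp and 414 bp were close to the 420 bp and 418 bp of all promoter peaks in these lists.

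Each of the 30 SBNO1 peaks overlapped a TAF4 peak (100%, interval 88.4% to 100%), compared with 83.8% of all SBNO1 promoter peaks. Of the 35 TAF4 peaks, 29 overlapped an SBNO1 peak (82.9%, interval 66.4% to 93.4%), compared with 66.3%. The overlap took a median of 88.4% of the SBNO1 peak and 88.2% of the TAF4 peak. In 24 of 30 pairs the centres were within 100 bp of each other. The SBNO1 centre lay upstream of the TAF4 centre in 20 pairs (66.7%) and downstream in 10, with a median difference of −36 bp. Over all genes 52.3% of pairs had SBNO1 upstream and the median was −5 bp. With 30 pairs this difference is uncertain and was not tested, and the TAF4 peak of PSMC5 was paired with both SBNO1 peaks there. Since the lists gave no summits, centres are midpoints of the called regions.

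The centres of a few pairs lay farther apart. At PSMD12 the SBNO1 centre lay at −362 bp from that of TAF4, whose peak of 862 bp reached 661 bp into the gene. At PSMC6 the difference was −263 bp between peaks of 1018 bp and 891 bp, with the SBNO1 peak at −684 to 333 bp and the TAF4 peak at −358 to 532 bp from the TSS. The opposite shift of 279 bp belonged to the second SBNO1 peak of PSMC5.

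**Figure D3:**
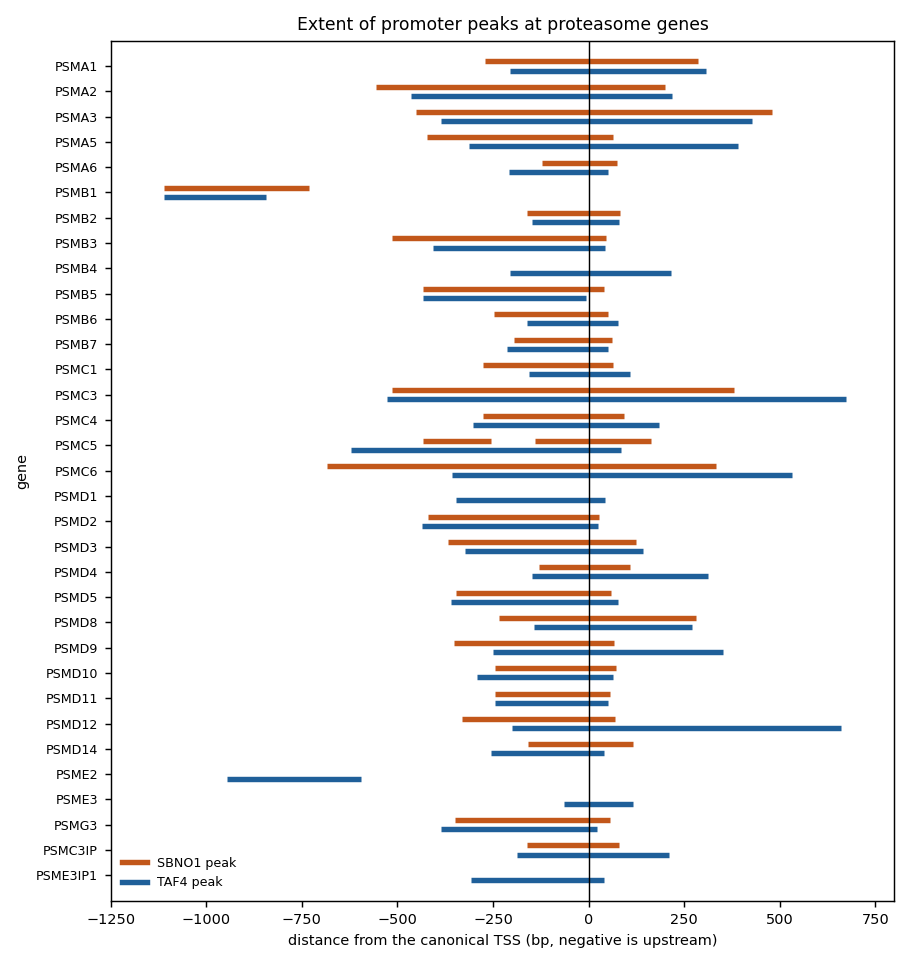
Extent of SBNO1 (orange) and TAF4 (blue) peaks relative to the canonical TSS (bp, negative is upstream) for members with a peak near it, with the peaks of PSMC2 and of PSME3 at their distant alternative TSS left out. Most pairs overlap at the TSS, PSMB1 and PSME2 lie upstream of it, and TAF4 reaches farther downstream at PSMD12 and PSMC3.

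Promoters shared with another gene were counted next. Another protein-coding TSS lay within 1 kb of a TSS of 15 members (30.6%, interval 18.3% to 45.4%). The interval included the 18.9% of all genes. Of these 15, 6 had SBNO1 (40.0%, interval 16.3% to 67.7%) and 9 had TAF4 (60.0%, interval 32.3% to 83.7%). Of the 34 members without such a neighbour, 23 had SBNO1 (67.6%, interval 49.5% to 82.6%) and 25 had TAF4 (73.5%, interval 55.6% to 87.1%). Over all genes the order was the other way, with SBNO1 at 47.5% of genes with and 20.6% of genes without a neighbour, and TAF4 at 57.5% and 25.9%. The intervals of the members with and without a neighbour overlapped for both antibodies. The higher share of proteasome genes with a peak was seen among the 34 members without such a neighbour. For the 15 members with one, the intervals included the shares of all genes with a neighbour.

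In the median, members with neither peak lay in surroundings with fewer peaks than members with both. For each member, the share of the other protein-coding genes within 5 Mb that had an SBNO1 peak was computed, leaving out genes with a TSS within 1 kb of the member. Its median was 31.7% (range 1.47% to 62.5%) around the 29 members with both peaks and 14.9% (range 4.76% to 32.6%) around the 15 members with neither. For TAF4 the medians were 34.2% (range 5.88% to 58.9%) and 25.9% (range 4.76% to 38.1%). Around the 5 members with TAF4 alone both medians were lower still, 13.8% for SBNO1 and 19.5% for TAF4, although these members had a TAF4 peak. The SBNO1 share was below that of all genes around 10 of the 29 members with both peaks and 13 of the 15 with neither. Around PSMD6 on chromosome 3, 1 of 21 genes had an SBNO1 peak and 1 had a TAF4 peak. Around PSMD13 on chromosome 11 the shares were 9.92% and 10.7%, and for all 5 constitutive core and 19S genes without a peak both shares were below those of all genes. The part of the surroundings in the absence of peaks was not tested, and members on the same chromosome share many of these genes.

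The surroundings did not follow the peaks everywhere. PSMB8 and PSMB9 had no peak although 32.4% and 32.6% of the genes around them had SBNO1, and PSMD10 had both peaks although this held for 1.47%. Chromosomes 16 and 18 had few peaks as a whole, with SBNO1 at 7.87% and TAF4 at 18.2% of their 1105 genes. Of the 5 members there (PSMD7, PSMB10, PSMA8, PSMG2 and PSME3IP1) none had SBNO1 and 1 had TAF4. Of the 8 members on chromosome 17, all had both peaks, where SBNO1 marked 35.4% and TAF4 39.8% of genes.

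**Figure D4:**
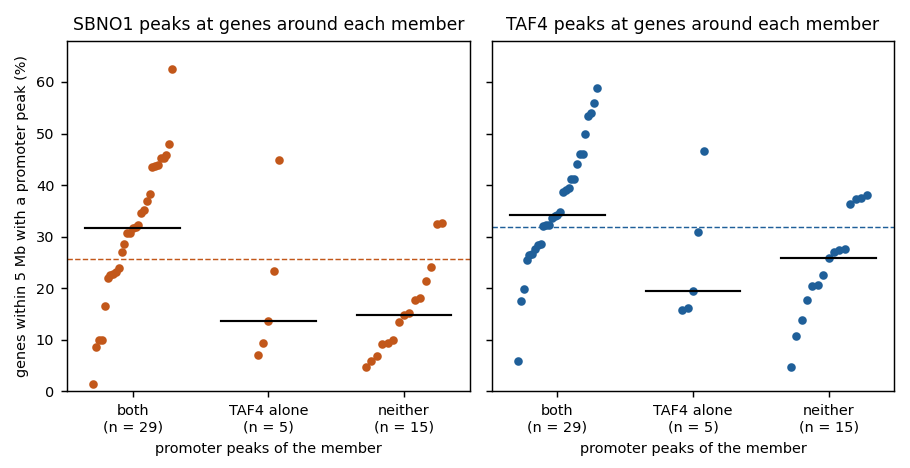
Share (%) of protein-coding genes within 5 Mb of each member that had a SBNO1 (left) or TAF4 (right) promoter peak, with 1 point per member ordered by value within its peak class, medians as black lines and the share of all genes as dashed lines. The medians of members with neither peak, 14.9% and 25.9%, and of members with TAF4 alone, 13.8% and 19.5%, lie below the dashed lines. The ranges overlap.

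The sequence of the promoters was examined in windows of 250 bases before and 50 bases after the canonical TSS. The GC content had a median of 61.3%, compared with 63.7% of all genes, and the ratio of observed to expected CpG had a median of 0.817, compared with 0.777. A CpG ratio of 0.6 or more was found at 44 members (89.8%) and at 67.7% of all genes. Within this class 63.6% of members had SBNO1 and 70.5% had TAF4, compared with 33.9% and 43.0% of all genes of the class. The other 5 members had lower ratios. PSMB11 with 0.169 and PSMB10 with 0.329 had no peak. PSMC2 with 0.468, PSME2 with 0.497 and PSMD8 with 0.544 had TAF4, and PSMD8 also had SBNO1. The members without peaks were not poor in CpG as a group, with a median of 0.861, compared with 0.831 at members with both.

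ETS matches (CCGGAA) were found in 26 of 49 windows (53.1%, interval 38.3% to 67.5%), compared with 22.7% of all genes and 29.9% of genes with a CpG ratio of 0.6 or more. Among members with both peaks the share was 62.1% (interval 42.3% to 79.3%), compared with 37.5% of all genes with both peaks, and among members with neither it was 40.0% (interval 16.3% to 67.7%). The core of the antioxidant response element (TGACNNNGC) was found in 14 windows (28.6%, interval 16.6% to 43.3%), compared with 14% of all genes. PSMA7, which had no SBNO1 or TAF4 peak, held 3 such matches, all between −119 and −47 from its TSS. The share was 24.1% at members with both peaks and 33.3% at members with neither, with overlapping intervals.

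The YY1 motif (AAGATGGC) was found in 6 windows (12.2%, interval 4.63% to 24.8%), compared with 4.06% of all genes. The 5.41% of genes with a CpG ratio of 0.6 or more lay within this interval. The 6 windows were those of PSMA2, PSMB5, PSMB6, PSMB7, PSMD5 and PSMD11. All 6 genes had both peaks, as did 421 of all 799 genes with the motif. Among members with both peaks the share was 20.7% (interval 7.99% to 39.7%), which included the 9.46% of all genes with both peaks. In 5 of them the match lay on the strand of the gene just downstream of the TSS, beginning at base 11 (PSMD5), 12 (PSMD11), 14 (PSMA2), 15 (PSMB7) and 29 (PSMB6), where base 1 is the TSS. At PSMB5 it began at −221. For the remaining motifs the intervals of the members included the shares of all genes and of genes with a CpG ratio of 0.6 or more. In this CpG class KLF/SP was found in 79.6% and NFY in 35.0% of genes. NFY (CCAAT) was found in 44.9% of members and 36.1% of all genes, KLF/SP (GGGCGG) in 69.4% and 61.6%, TATAAA in 10.2% and 9.65% and NRF1 (GCGCATGCG) in 2.04% and 2.70%, and CRE (TGACGTCA) in none and 2.72%.

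**Figure D5:**
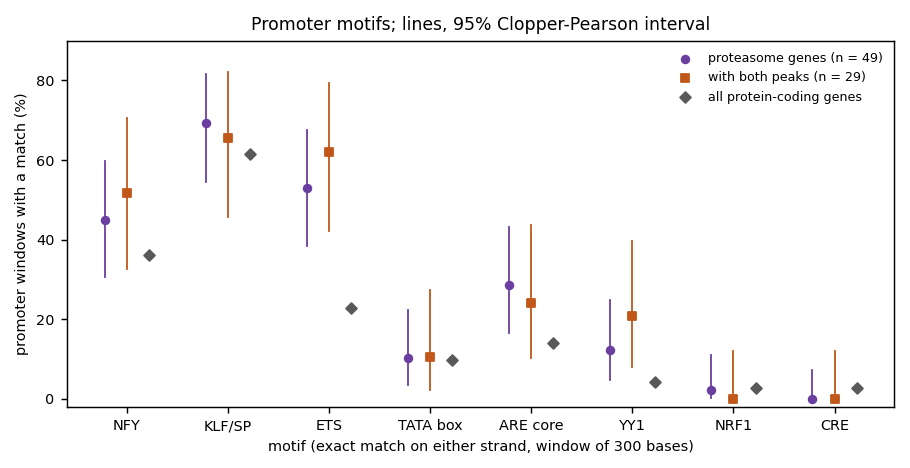
Share (%) of promoter windows of 300 bases with an exact match to each motif for the 49 proteasome genes (circle), the 29 with both peaks (square) and all protein-coding genes (diamond), with 95% Clopper-Pearson intervals as lines. ETS stands at 53.1% and 62.1% against 22.7%, and the intervals of NFY, KLF/SP, TATA box, NRF1 and CRE in the 49 genes include the share of all genes.

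Finally, genes of the proteasome pathway outside the symbol rule and other complexes were compared. Of 23 pathway genes, 16 had SBNO1 (69.6%, interval 47.1% to 86.8%) and 17 had TAF4 (73.9%, interval 51.6% to 89.8%). The shares of all genes were 25.7% and 31.9%. An IgG peak was found at 2 pathway genes (8.70%, interval 1.07% to 28.0%), and this interval included the 1.41% of all genes. NFE2L1, the regulator of the subunit genes, had 2 peaks of each protein, but also an IgG peak with a score of 563. NFE2L2, which regulates oxidative stress genes, had 872 for SBNO1 and 1000 for TAF4. The inhibitor gene PSMF1 had 1000 in both lists, and the receptor gene ADRM1 had 2 SBNO1 peaks, 1 of them with a score of 1000. POMP, the maturation factor of the core, had 628 and 853. AKIRIN2, which carries proteasomes into the nucleus, had 915 and 1000. PAAF1, a chaperone of the ATPases, had both and an IgG peak with a score of 835.

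All 4 ubiquitin genes had TAF4, while UBB and RPS27A had no SBNO1. No peak was found at SEM1, USP14, ECPAS, NGLY1 and UBQLN2. The share of proteasome genes was lower than that of cytosolic ribosomal protein genes, of which 87.5% (interval 78.7% to 93.6%) had SBNO1 and 93.2% (interval 85.7% to 97.5%) had TAF4. For both antibodies these intervals did not overlap with those of the 49 proteasome genes, while they overlapped with those of the 34 constitutive genes. Mitochondrial ribosomal protein genes had SBNO1 at 67.9% and TAF4 at 73.1%, and the COP9 signalosome, a relative of the 19S lid, at 70.0% and 60.0% of 10 genes. For both antibodies the intervals of these lists overlapped with those of the proteasome genes.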

How the data were processed

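ChIP-seq peaks were analysed for SBNO1, TAF4 and IgG in HuCCT1 cells, 1 library each, grouped by the antibody in the labels. Per the study's methods, material from several biological replicates had been combined into 1 library per antibody. Single-end reads were trimmed with ktrim and aligned to GRCh38 with bowtie2. The methods name normR as the peak caller, while the submitters' processing notes list Bowtie2 2.5.4 and Genrich 0.6.1. Which caller made the lists, its threshold, the treatment of duplicates and the use of IgG as control were not settled by the sources used here. By the 1 kb rule the deposited lists marked 5057 genes for SBNO1, 6280 for TAF4 and 4450 for both. The study counted far fewer bound promoters within 1 kb, and a smaller part of them was shared. Within 1 kb of a protein-coding TSS lay 4791 of 16147 SBNO1 peaks and 6042 of 12763 TAF4 peaks. The study gave a larger part for each protein. Counted in this way, the deposited lists therefore differ from the promoter set of the study, and the reason was not tested. Every share given here applies to the deposited lists alone. The deposited score is the authors' value per peak, a whole number with a cap of 1000. Sequencing depth is unknown, since peak lists hold no read numbers.

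TSS of protein-coding transcripts were taken from GENCODE 44 (78567 sites of 19689 genes outside the mitochondrial genome, 1-based, GRCh38). Distances were measured from the nearest peak edge and overlap required 1 bp. Motifs were exact matches in windows of 300 bases. Of the members, 43 were in the RefSeq promoter table of this build, with identical windows. The functions were tested on simulated data, where 600 of 600 planted genes among 2000 were recovered. Python 3.11.15, NumPy 2.4.6, SciPy 1.17.1 and matplotlib 3.10.9 were used.

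The members and lists were chosen with earlier results of these data known. All members were named by peak class within role. Peak values or distances, not all with coordinates, were given for PSME3 and the 3 members with the highest SBNO1 score of core and cap genes (ties by width, then position). They were also given for PSMG3, the only chaperone gene with a peak, and for members with 1 antibody alone. The same held for members with restricted expression and members within 500 bp of the 1 kb limit. Alternatives were other TSS sets, distances, score filters, assignment to the nearest TSS and removal of IgG peaks. The surroundings within 5 Mb, the removal of chromosomes 16 and 18 and the covering of the canonical TSS were added after the data had been seen.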

Additional observations from a re-analysis of the deposited data

Results flagged for a closer look

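Peaks outside promoters were not used in the comparisons. Over 1 kb from any protein-coding TSS, 1 SBNO1 peak and 1 TAF4 peak lay inside a proteasome gene, and the IgG list had 0 in the same 1.38 Mb. Since that list held 1598 peaks in all, against 16147 for SBNO1 and 12763 for TAF4, counts of this size do not distinguish the antibodies from the control. The SBNO1 peak (chr9:124392853-124393260, score 911) was centred 22386 bp downstream of the TSS of PSMB7. The TAF4 peak (chr2:231162103-231162345, score 1000) was centred 105357 bp downstream of the TSS of PSMD1. Neither overlapped a peak of another library.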

How the results depend on the processing

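Of 119 values under an alternative, 105 stayed within the interval of the reported share and 14 moved. All 14 came from score filters. Part of the 105 could not move. No promoter peak at a member overlapped an IgG peak, so removing such peaks changed nothing. The IgG share of 0% could not change under settings that only narrow the count. The intervals of the core, cap and chaperone groups are also wide, so the tally is no measure of stability. With peaks at or above the median score of their list, SBNO1 marked 40.8%, TAF4 42.9% and both 32.7% of members, TAF4 marked 50% of cap genes, and SBNO1 and TAF4 each marked 0% of chaperone genes. The shares of all genes under this filter were 13.1%, 19.6% and 9.21%. With peaks at the cap of the score, SBNO1 marked 28.6%, TAF4 40.8% and both 22.4% of members, SBNO1 21.1% of core and 37.5% of cap genes, TAF4 50% of cap genes, and each 0% of chaperone genes. The shares of all genes were 9.14%, 17.3% and 6.22%. Assigning a peak only to its nearest TSS left 25 members with SBNO1 (51.0%) and 28 with TAF4 (57.1%), against 21.8% and 27.2% of all genes. PSMA2, PSMB1, PSMD10 and PSME3 lost SBNO1 in this way. TAF4 was lost at PSMA2, PSMB1, PSMC2, PSMD10, PSME2 and PSME3IP1. Without chromosomes 16 and 18, an alternative added after seeing the data, SBNO1 marked 65.9% and TAF4 75.0% of members, against 26.7% and 32.7% of all genes.

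No paired analysis was possible because only 1 library per antibody had been sequenced. The error between replicates is therefore unknown, depth cannot be compared between the lists, and the absence of a peak means that none was called at an unknown depth and threshold. Genes that share a promoter share a peak and are not independent. Score filters act on scores whose scaling is unknown.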
